A study of Bos taurus with 12 samples.

Results

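Heat shock genes, taken as the small heat shock proteins CRYAB, HSPB1 and HSPB8, the HSP70 proteins HSPA8 and HSPA1A, the HSP110 protein HSPH1, the J-domain protein DNAJB1, the HSP90 proteins HSP90AA1 and HSP90AB1 and the chaperonin HSPD1, were followed in growth plate chondrocytes of cattle. All 10 genes were present, with 21 probe sets among the 24016 that are not controls, and they made up 10 of the 9155 genes named on the array. Every probe set carrying 1 of these symbols was kept separate. CRYAB was chosen by its HZ-RZ difference in these same arrays, known from an earlier look, and the other 9 were added as its relatives and partners with that contrast known. The zone differences of all 21 probe sets are therefore given as a description, with standard errors and with no p-value for any single probe set.

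The cells were chondrocytes of the distal metacarpal growth plate of male dairy cattle, all under 10 months of age, released by collagenase for 4 hours and parted by density. Cells of the hypertrophic zone (HZ) were the lightest fraction and cells of the reserve zone (RZ) the heaviest, without further treatment. Total RNA of 6 HZ and 6 RZ fractions was measured on 12 arrays of a single colour, in pairs numbered 1 to 6. The labels do not say whether a pair came from 1 animal, so errors describe these pairs and not animals. Standard errors start from the spread between the pairs, which the fit draws towards that of the other probe sets. They are therefore not the plain spread of a single probe set, and the number of arrays limits the precision.

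Heat shock proteins are chaperones, which bind unfolded proteins and keep them from clumping. Small heat shock proteins hold such clients without using ATP, HSP70 proteins refold them in cycles that J-domain proteins start and HSP110 proteins reset, and HSP90 proteins finish kinases, receptors and other clients. In stressed cells many of these genes are switched on together by the transcription factor HSF1, while HSPA8 and HSP90AB1 are made at high level without stress. Not all members act in the cytosol: HSPD1 is the chaperonin of mitochondria. CRYAB, also called alpha-B crystallin, is known from the eye lens and from heart and skeletal muscle.

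The zone labels fitted most of their markers, in lists chosen with earlier results of these data known. Of 6 hypertrophic zone markers, 5 passed as higher in HZ and 0 as lower, with COL10A1 the exception. COL10A1 was bright in both zones, at 21620 ± 4513 in HZ and 20147 ± 4698 in RZ (SD, n = 6 each). Its log2 difference was 0.11 ± 0.16 (SE), higher in HZ in 4 of 6 pairs. Of 5 reserve zone markers, 4 passed as lower and 0 as higher (limma with the pair as a block, Benjamini-Hochberg over all probe sets, adjusted p under 0.05). The 4 measured chondrocyte markers were bright in both zones, with a summed signal of 58949 to 101664 in HZ and 53460.2 to 111402 in RZ, and 0 of them passed. Markers of other cells differed too, and their part in the results was not tested. Of 6 leukocyte markers 1 passed, PTPRC, as lower in HZ, with summed signals of 1065 to 1762 in HZ and 1132 to 2907 in RZ. PTPRC averaged 17.5 in HZ. In RZ it read 282 and 465 in pairs 1 and 2 and 8.25 to 51.6 in pairs 3 to 6. Its 2 other probe sets gave log2 differences of -0.24 and 0.19. The markers that did not pass went both ways, CD68 at 0.14, TYROBP at 0.76, LAPTM5 at -0.03, CD3E at -0.39 and CD14 at -0.81. Of 5 endothelial markers 1 passed, PECAM1, also as lower, with sums of 185 to 519 in HZ and 472 to 712 in RZ. PECAM1 itself read 83.3 to 246 in HZ and 232 to 480 in RZ, and its second probe set gave -1.36. The 4 that did not pass went both ways, VWF at 0.11, KDR at -0.03, CDH5 at -0.11 and TEK at -0.32. Both measured osteoclast markers, ACP5 and CTSK, passed as higher, with sums of 7099 to 9792 in HZ and 2262 to 5404 in RZ. The 5 red blood cell markers were all dim and 0 passed, with sums of 47.9 to 148 in HZ and 103 to 217 in RZ. Pairs 1 and 2 stood apart from pairs 3 to 6 in the smallest step between deposited values, 0.0237 to 0.0318 against 0.00884 to 0.0110, so results are also given within each set of pairs. The log2 ratio of probes near the 3′ end to those near the 5′ end of GAPDH, which grows when RNA is degraded or labelled copies are short, was 1.46 on HZ-3 and 1.20 on HZ-4. It ran from -0.09 to 0.27 on the other HZ arrays and from -0.20 to 0.50 on the RZ arrays. The same ratio for actin was higher in HZ in 6 of 6 pairs, at 2.79 ± 0.59 in HZ and 2.10 ± 0.40 in RZ (SD, n = 6 each), so this sign of RNA quality moved with the zones, and its part in the zone differences was not tested.

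CRYAB was the 1 heat shock gene with a large difference between the zones. Its signal was 7959, 3523, 4443, 5796, 11434 and 7061 in HZ of pairs 1 to 6, against 1286, 863, 1193, 1229, 2471 and 1242 in RZ of the same pairs. The lowest HZ array lay above the highest RZ array, so the zones did not overlap. The means were 6703 ± 2833 in HZ and 1381 ± 556 in RZ (SD, n = 6 each). On the scale of log2(signal + 16), HZ was higher by 2.24 ± 0.15 (SE), a 4.72-fold difference with a 95% interval from 3.73-fold to 5.97-fold. Counted from the most positive difference, it ranked 24 among the 24016 probe sets.

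The CRYAB difference ran from 3.73-fold in pair 3 to 6.19-fold in pair 1, as ratios of the signals. Its log2 values were 2.61, 2.01, 1.88, 2.22, 2.20 and 2.49 in pairs 1 to 6, all on the same side. Averaged over pairs 1 and 2 it was 2.31, and over pairs 3 to 6 it was 2.20. The level itself varied more than the difference: pair 5 gave the highest CRYAB signal of both zones and pair 2 the lowest of both. The smallest pair difference of CRYAB, 1.88, was above the largest of any other member, 1.64, which came from a dim HSPA1A probe set in pair 6. Fewer cells of a type and less RNA per cell cannot be told apart in such bulk samples.

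**Figure D1:**
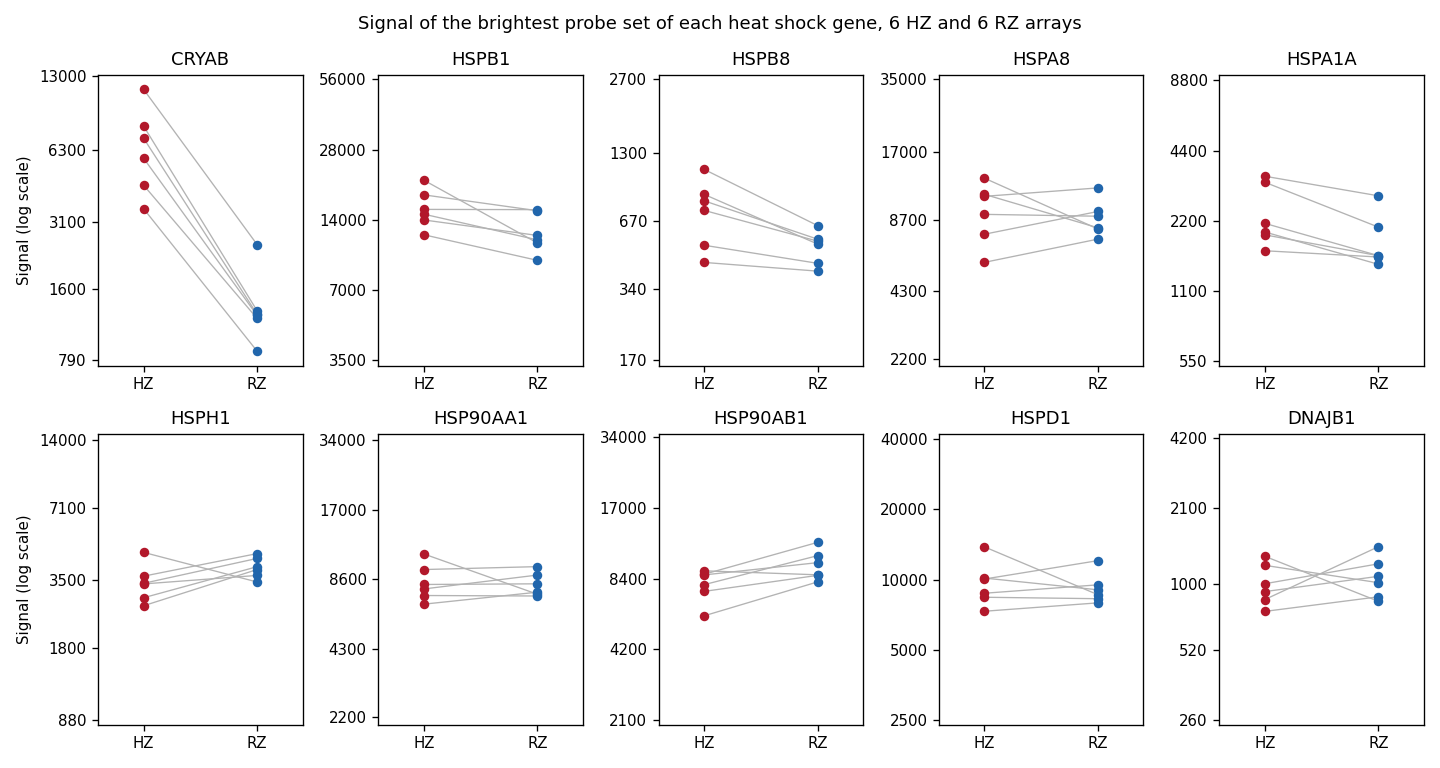
Signal on a log axis of the brightest probe set of each of the 10 heat shock genes, with the 6 HZ arrays left and the 6 RZ arrays right of each panel. Every panel spans the same ratio from bottom to top, and grey lines join the arrays of a pair. CRYAB shows 6 steep lines and no overlap between the zones, while the zones overlap in the other 9 genes.

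Of the 21 probe sets, 1 passed as higher in HZ in the fit across all probe sets, that of CRYAB, and 0 passed as lower. Among all 24016 the shares were 3.26% higher and 2.96% lower. Since this contrast helped to choose the members, the counts only describe them. At an unadjusted limma p under 0.05, 4 of the 21 were higher and 0 lower, where the shares of all were 10.4% higher and 11.8% lower. The zones did not overlap in 1 probe set of 21, against 2.89% of all. The median log2 difference over the 21 was 0.01, and over all probe sets it was -0.01. Without CRYAB, 10 probe sets lay above 0 and 10 below, from -0.52 to 0.47, with a median size of 0.21 that compares with 0.22 over all probe sets.

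HSPB1, a small heat shock protein that also binds actin filaments, was somewhat brighter in HZ. Its brighter probe set read 14814, 12090.5, 13994, 17925, 20715 and 15529 in HZ of pairs 1 to 6, and 11492, 9394, 12009, 15326, 11146 and 15490.0 in RZ of the same pairs. HZ was above RZ in 6 of 6 pairs, but by almost nothing in pair 6, and the zones overlapped. The difference was 0.35 ± 0.16 (SE, 95% interval -0.00 to 0.69), with 0.89 in pair 5 as its highest value. The dimmer HSPB1 probe set gave 0.43 ± 0.18, above 0 in 5 of 6 pairs.

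HSPB8, which works with the co-chaperone BAG3 in clearing misfolded proteins by autophagy, had the largest difference after CRYAB among the brightest probe sets of the 10 genes. Its signal was 443, 1110.3, 868, 814, 741 and 525 in HZ of pairs 1 to 6, compared with 407, 637, 531, 557, 547 and 439 in RZ of the same pairs. HZ was higher in 6 of 6 pairs, by 0.12 to 0.79, and pair 1 showed the least. The mean difference was 0.47 ± 0.15 (SE, 95% interval 0.14 to 0.80), which did not pass over all probe sets.

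HSPB2, a small heat shock protein found mostly in heart and skeletal muscle, lies next to CRYAB in RefSeq's genes for the ARS-UCD2.0 assembly, and it is no member of the 10. It rose in HZ. The signal was 237, 212, 203, 236, 373 and 144 in HZ of pairs 1 to 6, and 86.9, 82.8, 66.3, 107, 61.8 and 108 in RZ of the same pairs. The zones did not overlap, and the log2 difference was 1.28 ± 0.22 (SE, limma adjusted p = 0.0124). HSPB2 passed in 11 of 15 alternative fits, among them all 6 with a pair left out. It did not pass on the deposited ratio (limma adjusted p = 0.0517), in pairs 1 and 2 alone, in pairs 3 to 6 alone or without pairs 3 and 4. Pairs 1 and 2 averaged 1.25, and pairs 3 to 6 averaged 1.29. HSPB6, a relative in smooth and striated muscle, gave -0.53 and did not pass. It was lower in HZ in 6 of 6 pairs, with the zones overlapping. HSPB6 passed as lower with 64 added (-0.46) and when probe sets with a mean signal under 64 were dropped. HSPB3, near the floor, gave 0.20 and did not pass.

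Skeletal muscle markers are given here because CRYAB and HSPB2 are abundant in muscle. Of 8 measured markers, 1 passed as higher in HZ, and 0 passed as lower, with a median difference of 0.40. The 1 that passed was DES, the muscle intermediate filament desmin, at 1.81 ± 0.26 (SE, limma adjusted p = 0.00612). Its signal averaged 400.3 ± 249 in HZ and 94.4 ± 46.4 in RZ (SD, n = 6 each). The summed signal of the 8 markers ran from 2530.0 to 7765 in HZ and from 1614 to 5466 in RZ, most of it from the creatine kinase CKM at 0.51 ± 0.23. None of the 8 was at 0, but the fast troponin TNNT3 averaged 14.7 in HZ and 30.7 in RZ, below the array median of 96.7. TNNC2, MYH1 and MB also averaged below that median in both zones. Skeletal actin (ACTA1) differed by 0.76 ± 0.34 (SE), myosin heavy chain (MYH1) by 0.43 ± 0.15 and higher in 5 of 6 pairs, myoglobin (MB) by 0.03, and the troponins TNNC2, TNNI2 and TNNT3 by 0.37, 0.21 and -0.59. None of these 6 passed. For ACTA1, HZ-5 read 977, against 108 to 372 on the other HZ arrays. The 7 other MYH1 probe sets gave 0.80, -0.15, -0.66, 0.03, -0.22, 0.05 and -0.22, and the second CKM probe set gave 0.02. The part of muscle cells in the CRYAB difference was not tested.

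HSPA8, the constitutive HSP70 of the cytosol, did not pass. In HZ of pairs 1 to 6 it read 11189, 5722, 13125, 7552, 9186 and 10975, and in RZ of the same pairs it read 8041, 7197, 7947, 9453, 9019 and 11925. The HZ arrays reached both lower and higher than the RZ arrays. The difference was 0.08 ± 0.18 (SE, 95% interval -0.33 to 0.48), above 0 in 3 of 6 pairs.

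HSPA1A, the stress-inducible HSP70, was read by 6 probe sets that did not agree on a difference. The brightest gave 1638, 1916, 3219.7, 1971, 3416 and 2146 in HZ of pairs 1 to 6, against 1539.8, 1560.3, 2068, 1433, 2816 and 1560.4 in RZ of the same pairs. It was above RZ in 6 of 6 pairs, at 0.37 ± 0.14 (SE, 95% interval 0.06 to 0.68), with the zones overlapping. The other 5 gave 0.06, 0.01, 0.01, -0.21 and -0.00, and each was above 0 in 3 pairs or fewer. Of these 6, 2 carry an Entrez identifier that is not in the RefSeq gene table, and that table gives HSPA1B as another name of HSPA1A, so near-identical copies of this gene cannot be told apart here.

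HSPH1, an HSP110 protein that swaps the nucleotide of HSP70, and DNAJB1, a J-domain protein that starts the HSP70 cycle, stood slightly below RZ at their brightest probe sets. For HSPH1, the signals were 3373, 2719, 4605, 2943, 3641 and 3393 in HZ of pairs 1 to 6, and 3668, 3887, 3437, 3998, 4549 and 4338 in RZ of the same pairs. HZ lay below RZ in 5 of 6 pairs, at -0.22 ± 0.16 (SE, 95% interval -0.58 to 0.14), and pair 3 went the other way. Its 3 dimmer probe sets gave -0.52 ± 0.29, -0.32 ± 0.27 and -0.17 ± 0.21, above 0 in 2, 3 and 2 pairs. For DNAJB1, the signals were 854, 998, 1309, 759.9, 1197 and 924 in HZ of pairs 1 to 6, and 1438, 1215, 839.7, 878, 1009 and 1074 in RZ of the same pairs. Its difference was -0.09 ± 0.19 (SE, 95% interval -0.52 to 0.33), with pairs 3 and 5 above 0. The other DNAJB1 probe set gave -0.38 ± 0.31. At the brightest DNAJB1 probe set the average over pairs 1 and 2 was -0.51, and over pairs 3 to 6 it was 0.11. At the other one these averages were -0.97 and -0.09.

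Neither HSP90 gene passed. HSP90AA1, the stress-inducible form, read 7317, 6718, 11024, 7807, 8158 and 9453 at its brighter probe set in HZ of pairs 1 to 6, and 7282, 7561, 7410.1, 8953, 8212 and 9729.8 in RZ of the same pairs. HZ-3 stood above all other arrays, and the difference was 0.03 ± 0.15 (SE, 95% interval -0.31 to 0.37). Its dimmer probe set gave -0.25 ± 0.19. HSP90AB1, the constitutive form, read 7434, 5842, 9105, 7945, 8745 and 8803 in HZ of pairs 1 to 6, and 8708, 8165, 8754, 10579, 9873 and 12062 in RZ of the same pairs. It was below RZ in 5 of 6 pairs, at -0.28 ± 0.14 (SE, 95% interval -0.60 to 0.03). The name of its probe set ends in s_at, which marks probes that can also match related transcripts.

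HSPD1, which folds proteins inside mitochondria, differed by 0.06 ± 0.16 (SE, 95% interval -0.30 to 0.42). Its signals were 10143, 7312, 13796, 10048, 8394 and 8733 in HZ of pairs 1 to 6, against 9031, 7943, 8602, 12047, 8274 and 9489 in RZ of the same pairs. HZ was above RZ in 3 of 6 pairs and the zones overlapped widely. For the brightest probe sets of the 9 genes other than CRYAB, the intervals together ran from -0.60 to 0.80, which leaves room for differences of that size in single genes.

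Counted by pairs, 4 of the 21 probe sets were higher in HZ in all 6 pairs, those of CRYAB and HSPB8 and the brightest of HSPB1 and HSPA1A, against 6.85% of all probe sets. No probe set was lower in all 6 pairs, a pattern found in 7.15% of all. When the zone difference of pairs 1 and 2 was set against that of pairs 3 to 6 within the same fit, limma passed 0 of the 21 probe sets at an adjusted p under 0.05, against 0.00833% of all probe sets. At an unadjusted p under 0.05 it was again 0 of 21, against 5.03% of all. The largest such gap, pairs 1 and 2 minus pairs 3 to 6, was 0.90 ± 0.57 (SE) for the second HSPH1 probe set, and CRYAB had 0.11 ± 0.34.

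**Figure D2:**
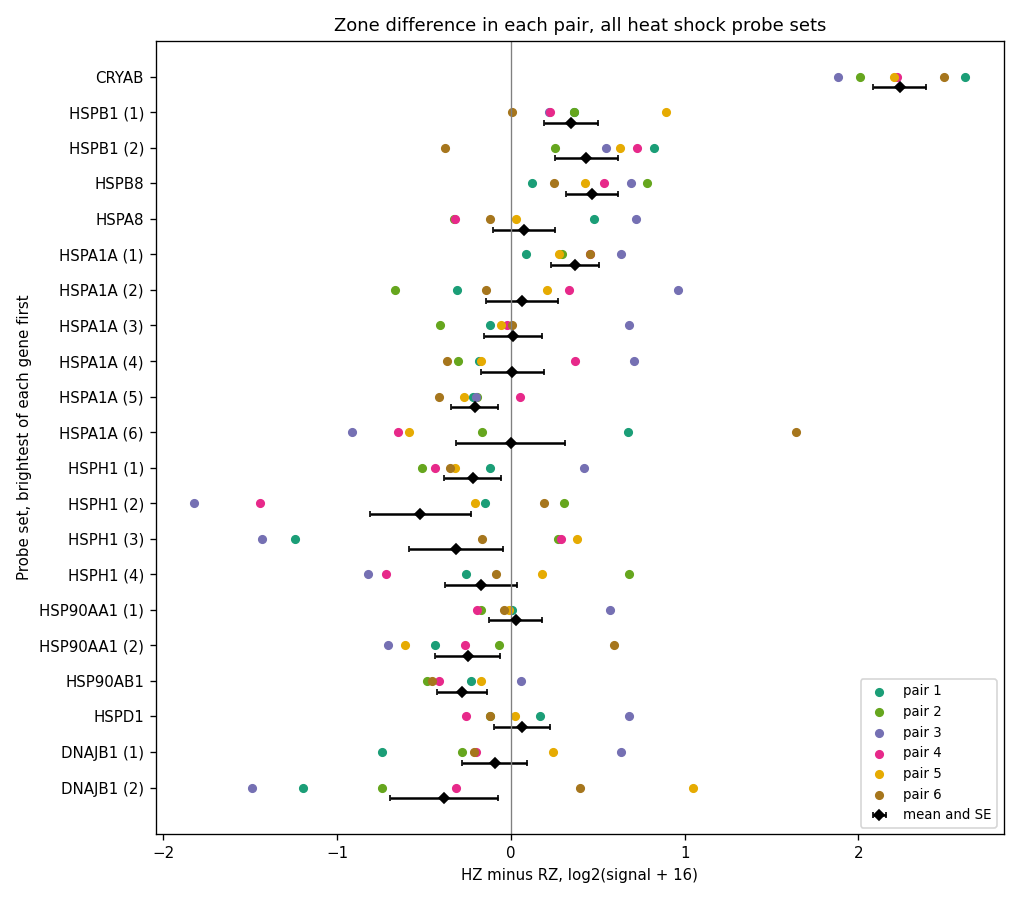
Difference of HZ minus RZ in log2(signal + 16) for all 21 heat shock probe sets, with a coloured point for each of the 6 pairs and a black diamond with its standard error for the mean. The 6 points of CRYAB lie between 1.88 and 2.61, and those of the other genes fall around 0. Pair 3 lies far to the right in the brightest probe sets of most genes and far to the left in several dim ones.

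Pair 3 moved many of these genes at once. Among the brightest probe sets of the 9 genes other than CRYAB, all 9 lay above 0 in pair 3 and 7 had their highest difference there. Pair 3 also held the highest difference for 42.6% of all genes with a mean signal of at least 64. The median of the 9 was 0.63 in pair 3, 0.09 in pair 1 and from -0.20 to 0.03 in pairs 2, 4, 5 and 6. The median over all probe sets in pair 3, dim ones included, was 0.10. HZ-3 was the brightest HZ array for 6 of the 9. For that median, the 9 above 0 and HZ-3, no background over genes of like brightness is given. HSPA8 gave 0.72 in pair 3, HSPD1 0.68, HSPA1A and DNAJB1 0.63 each and HSP90AA1 0.57.

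In pair 3 the dimmer probe sets of DNAJB1, HSPH1 and HSP90AA1 fell on the other side, but those of HSPB1 and HSPA1A mostly did not. The dimmer HSPB1 probe set gave 0.55, and those of HSPA1A gave 0.96, 0.68, 0.71, -0.20 and -0.92. DNAJB1 gave 0.63 at its brightest probe set and -1.49 at its other one, HSPH1 gave 0.42 and as low as -1.82, and HSP90AA1 gave 0.57 and -0.71. HZ-3 had the highest GAPDH ratio of 3′ to 5′ probes, while for actin HZ-4 was highest, at 3.58 against 3.26 on HZ-3. The part of RNA quality in the pair 3 values was not tested. CRYAB, with 1.88, had its smallest difference in pair 3.

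Some probe sets separated the pairs rather than the zones. The dimmer HSP90AA1 probe set read 1617 and 1682 on HZ-1 and HZ-2 and 2194 and 1763 on RZ-1 and RZ-2. On the arrays of pairs 3 to 6 it lay between 111 and 415 in HZ and between 107 and 502 in RZ. The brighter HSP90AA1 probe set showed no such gap. The dimmer HSPB1 probe set went the other way, with 93.1 and 28.9 as its HZ values in pairs 1 and 2 and 201 to 462 as its HZ values in pairs 3 to 6. In RZ it had 45.7 and 21.6 in pairs 1 and 2 and 157 to 273 in pairs 3 to 6. In all, 3 of the 21 probe sets had no overlap between the arrays of pairs 1 and 2 and those of pairs 3 to 6, the third being the fifth brightest HSPA1A probe set, against 4.52% of all probe sets. The fourth HSPH1 probe set, the dimmest of all 21, ranged from 2.10 on HZ-3 to 85.4 on RZ-1.

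**Figure D3:**
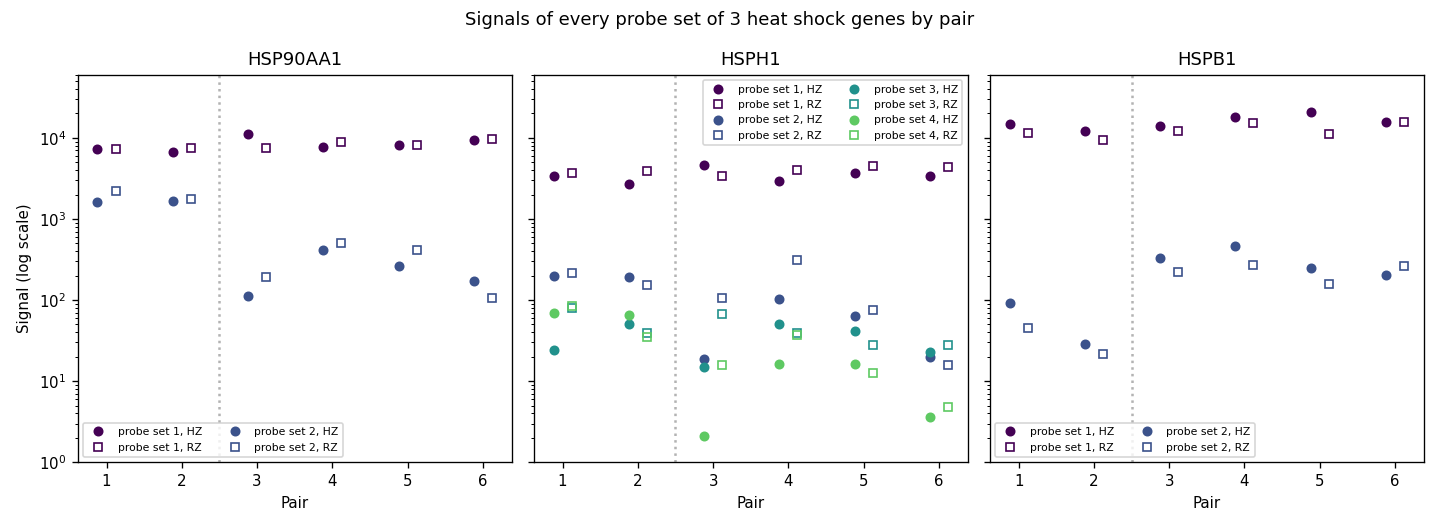
Signals on a log axis of every probe set of HSP90AA1, HSPH1 and HSPB1 by pair, numbered from the brightest, with filled circles for HZ and open squares for RZ. A dotted line parts pairs 1 and 2 from pairs 3 to 6. The dimmer HSP90AA1 probe set lies at 1617 or more in pairs 1 and 2 and at 502 or less in the others, while the brighter one stays level.

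The wider chaperone network was read from 48 measured genes in 8 lists that hold none of the 10 members. Of these, 4 passed as higher in HZ, HSPB2, DNAJA4, BAG2 and ST13, and 1 passed as lower, HSPA2. Over all 9155 genes at their brightest probe set, 4.17% passed as higher and 3.56% as lower. The median difference of the 48 was -0.10, beside -0.01 over all genes.

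DNAJA4, a J-domain partner of HSP70, rose the most. It had 1542, 1086, 1796, 1041, 1439 and 1396 in HZ of pairs 1 to 6, against 430.2, 500.3, 689.6, 475, 556 and 562 in RZ of the same pairs, without overlap. The log2 difference was 1.33 ± 0.15 (SE, limma adjusted p = 0.00199), in 6 of 6 pairs. The other 6 measured J-domain genes did not pass. Of these, DNAJC5, named after its value was seen, gave 0.54 ± 0.16 (SE) and was higher in HZ in 6 of 6 pairs with the zones overlapping. It passed with 64 added (0.43) and when probe sets with a mean signal under 64 were dropped, and its other probe set gave 0.29.

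Among 8 genes that regulate HSP70, BAG2 and ST13 rose. ST13, also called HIP, steadies the client-bound form of HSP70 and had 5816 ± 829.6 in HZ and 3435 ± 356 in RZ (SD, n = 6 each), a difference of 0.75 ± 0.15 (SE, limma adjusted p = 0.0211). BAG2, a nucleotide exchange factor that inhibits the ubiquitin ligase STUB1, had 482 ± 165 in HZ and 265 ± 51.5 in RZ (SD, n = 6 each), a difference of 0.78 ± 0.18 (SE, limma adjusted p = 0.037). Their second probe sets gave 0.68 for ST13 and 0.70 for BAG2 and did not pass. With a pair left out, ST13 passed in 3 of 6 fits and BAG2 in 1 of 6. The other regulators did not pass, and 3 of them are named after their values were seen. HSPBP1, a nucleotide exchange factor, had the largest difference of the list at -1.16 ± 0.32 (SE). It averaged -2.15 over pairs 1 and 2 and -0.66 over pairs 3 to 6, and it passed without pair 3, at -1.49, and when probe sets with a mean signal under 64 were dropped. BAG1, another exchange factor, gave -0.52 ± 0.16, lower in 6 of 6 pairs without overlap, and it passed without pair 3, at -0.62, with 64 added and without the dim probe sets. BAG3, the partner of HSPB8, gave -0.17 ± 0.14.

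HSPA2, an HSP70 best known from the testis, fell. Its signal was 401, 859, 1187, 663, 774 and 868 in HZ of pairs 1 to 6, and 957, 1284, 1630.1, 1490.3, 1815 and 2439.8 in RZ of the same pairs. HZ was lower in 6 of 6 pairs, although the zones overlapped through HZ-3 and RZ-1. The difference was -1.01 ± 0.17 (SE, limma adjusted p = 0.0117). HSPA4, HSPA14 and HSPA12B, the other measured HSP70 relatives, lay between -0.04 and 0.21 and did not pass. Leaving out pairs 3 and 4, a choice made after the data were seen, CRYAB (2.33) and DNAJA4 (1.38) passed. HSPB2 (1.30), ST13 (0.74), BAG2 (0.66) and HSPA2 (-1.12) did not, at differences near those of all 6 pairs.

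Co-chaperones of HSP90 and the other folding machines held no gene that passed over all 6 pairs on this scale. The 11 HSP90 co-chaperones had a median of -0.12, with CDC37, which brings kinases to HSP90, at 0.33 ± 0.14 (SE) and STIP1, which links HSP70 to HSP90, at -0.25 ± 0.14. Of 6 mitochondrial chaperones, HSPE1, the partner of HSPD1, stood highest at 0.65 ± 0.18 (limma adjusted p = 0.070) and was above RZ in 6 of 6 pairs. It passed with 64 added (0.64), after quantile normalization (0.69) and without the dim probe sets (0.65). HSPA9, the mitochondrial HSP70, gave -0.44 ± 0.21, and without pair 3 it passed at -0.66 (limma adjusted p = 0.0357). The other HSPA9 probe set gave -0.06 over all 6 pairs. The 6 measured subunits of the TRiC chaperonin, which folds actin and tubulin, had a median of -0.23, with CCT5 at -0.30 and CCT4 at -0.38. Among 3 heat shock factors, HSF2 gave 0.35 ± 0.17 and HSF4 -0.41 ± 0.18. HSF1, named after its value was seen, gave -0.28 ± 0.14, below RZ in 6 of 6 pairs, and did not pass.

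**Figure D4:**
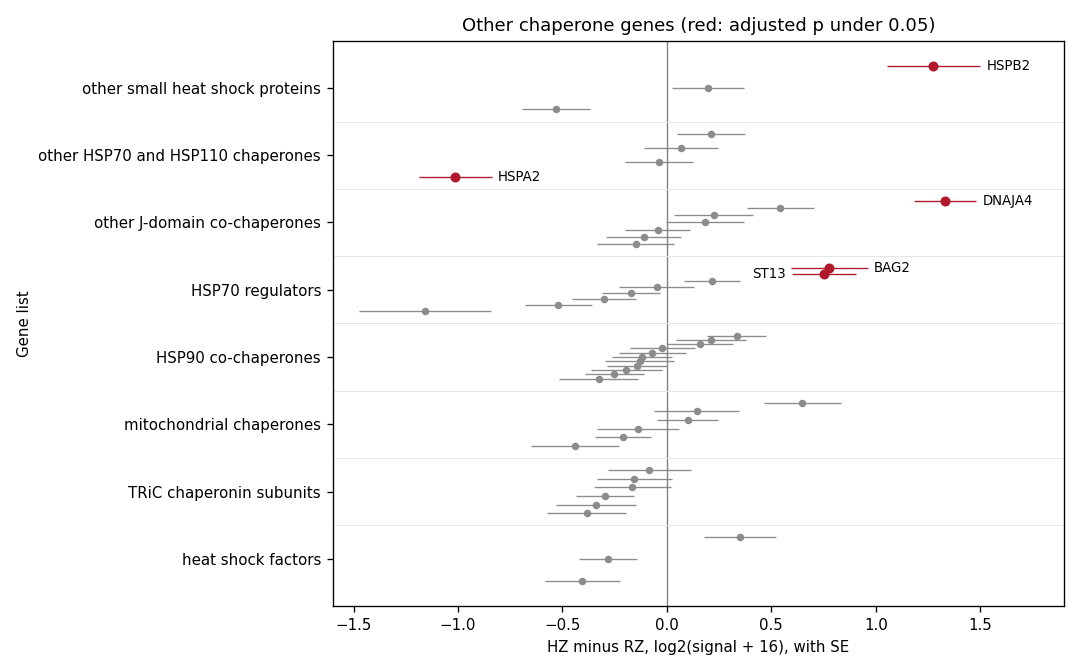
Difference of HZ minus RZ in log2(signal + 16), with its standard error, for 48 chaperone and heat shock factor genes in 8 lists. Red points passed at an adjusted p under 0.05. HSPB2, DNAJA4, BAG2 and ST13 lie to the right of 0 and HSPA2 to the left, and the lists of HSP90 co-chaperones, mitochondrial chaperones, TRiC subunits and heat shock factors hold no red point.

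Across the 12 arrays, the genes whose log2 signal was most like that of CRYAB were not heat shock genes. Among 7012 other genes with a mean signal of at least 64, the highest Pearson correlations were 0.963 for LIMCH1, an actin-binding activator of non-muscle myosin, 0.957 for RGS3, which turns off G protein signals, and 0.957 for CLDN6, a tight junction protein. MYL3, a myosin light chain of heart and slow muscle, had 0.956 and APEH, a peptidase that removes acetylated amino acids, 0.955. All 5 were higher in HZ in 6 of 6 pairs, and the arrays share their zone, so these values restate that difference in part. Within the 6 HZ arrays the correlations were 0.711 to 0.888, and within the 6 RZ arrays 0.516 to 0.926. Among the members, HSPB1 had 0.679 over the 12 arrays, HSPA1A 0.581 and HSPB8 0.347, and the other 6 lay between -0.370 and 0.243.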

How the data were processed

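The authors deposited linear ratios for 24128 probe sets on 12 arrays, of which 112 are controls. Per the labels' protocols, RNA was extracted with RNA STAT-60 and biotin-labelled with a MessageAmp II kit. Scanner software, scale and normalization: not given in the sources used here. From the values, each ratio was the scaled signal over the probe set's median for 21901 probe sets and over 1 fixed value for 2227 dim ones. Values were spaced by whole steps, which gave the divisor and so a signal for each probe set, with array medians of 96.7. That 1 step equals 0.1 signal units is an assumption.

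HZ was set against RZ by limma 3.58.1 (R 4.3.3) on log2(signal + 16), with the pair as a block (total degrees of freedom 9.76 for intervals) and Benjamini-Hochberg adjustment over 24016 probe sets. Its standard errors and intervals use limma's moderated variance, which borrows from the other probe sets. The planned test assumed intensities, for which the recovered signal stood in. Same-numbered arrays deviated together, with correlations of 0.124 to 0.447, all above 0.1, and the series text describes pairs. Of the 6 HZ arrays, 5 correlated best with their own number and HZ-3 did not. Step recovery and fit were tested on simulated data. Fold changes on this scale understate dim probe sets. A gene on a list was read at its brightest probe set. Symbols came from the platform annotation, and 19 of 21 probe sets matched the RefSeq table. Members and lists were chosen with earlier results of these data known. Named genes are all members, list genes that passed or else the 2 with the smallest p, and the 5 most like CRYAB. Other list genes in the text (such as the remaining muscle markers, HSP70 relatives, HSPB3, HSPB6 and COL10A1) were named after their values were seen.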

Additional observations from a re-analysis of the deposited data

Results flagged for a closer look

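In 63 sets of 6 values (the HZ signals, the RZ signals and the pair differences of each of the 21 probe sets), 1 value stood far from the other 5, where chance flags about 1 set in 20. It was the difference of the brighter HSP90AA1 probe set in pair 3, at 0.57, with the other pairs between -0.20 and 0.01.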

How the results depend on the processing

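CRYAB kept its direction in all 15 alternatives (2.16 to 2.33) and passed in 14, the exception being pairs 1 and 2 alone. Since CRYAB was chosen by this contrast in these same arrays, that only describes how its value depends on the processing. Of 313 values of single heat shock probe sets under the alternatives, 0 reversed a call, but only CRYAB had a call that could be reversed. The brightest probe sets of some other members changed sign between settings. HSPA8 ran from -0.05 to 0.16, HSP90AA1 from -0.08 to 0.08, HSPD1 from -0.06 to 0.13 and DNAJB1 from -0.51 to 0.11. The replicate numbers paired the arrays. Without the replicate block, 505 probe sets were called higher and 326 lower, against 782 and 712 with it, and BAG2 no longer passed. With 1 added in place of 16, 368 passed as higher and 215 as lower, with 2 listed chaperones higher. With 64 added, 3 heat shock probe sets passed as higher (HSPB8 and HSPA1A joined CRYAB), with 1017 higher and 1120 lower of all probe sets and 6 listed chaperones higher and 3 lower. On the deposited ratio the counts were 315 higher, 163 lower and 1 chaperone higher, DNAJA4, while HSPB2, BAG2 and ST13 did not pass. With a mean signal of at least 64 required, 2 heat shock probe sets passed as higher (HSPB8 joined), with 1097 higher and 1308 lower of all and 6 chaperones higher and 4 lower. Leaving out each pair in turn gave 334 to 650 higher and 223 to 895 lower over all probe sets, and 2 to 3 chaperones higher and 1 to 4 lower. The 895 lower and 4 chaperones lower came without pair 3, more than with all 6 pairs. Pairs 1 and 2 alone gave 0 higher and 0 lower, with 0 heat shock probe sets and 0 chaperones higher or lower (limma, 2931 probe sets at an unadjusted p under 0.05). Pairs 3 to 6 gave 258 higher and 78 lower, with 1 chaperone higher and 0 lower. Pairs 1, 2, 5 and 6, chosen after seeing the data, gave 91 higher and 48 lower, with 1 chaperone higher and 0 lower. The cause of these shifts was not tested. Dim probe sets near the added 16 limit what can be seen.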
